A study of Mus musculus with 112 samples.

Results

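Suz12 and 7 further genes of Polycomb repressive complex 2 (Ezh2, Ezh1, Eed, Rbbp4, Rbbp7, Jarid2 and Mtf2) were followed across mouse mammary tumours that arose in 18 AKXD sublines. Suz12 was chosen because its levels differed among the sublines in these arrays, and the other genes because their products belong to the same complex. Of 18194 genes with a probe set of their own, these are 8. The platform annotation gave one of the 8 symbols, and no other, to 28 of 45137 probe sets, 23 of 22626 on the MOE430A array (array A) and 5 of 22511 on the MOE430B array (array B). Suz12 had 6 probe sets, all on array A, and Mtf2 had 6, Rbbp4 4, Ezh1 4, Jarid2 3, Eed 2, Rbbp7 2 and Ezh2 1 over both arrays.

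The tumours came from crosses of AKXD recombinant inbred sublines, which carry fixed mixtures of the AKR/J and DBA/2J genomes, with mice carrying the PyMT transgene. All of them, in every subline, carry polyoma middle T antigen under the mouse mammary tumour virus promoter, which is active mainly in mammary epithelium, so the sublines differ in genetic background and share the oncogene. Total RNA of 56 tumours, 3 or 4 per subline and called biological replicates in the labels, was hybridised to both arrays, and no subline serves as a control for the others. The labels used here give neither the age of the animals nor the weight of the tumours.

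In Polycomb repressive complex 2, the product of Ezh2 or Ezh1 adds methyl groups to lysine 27 of histone H3, and needs the products of Suz12 and Eed to be active. The histone-binding products of Rbbp4 and Rbbp7 complete the core, while those of Jarid2 and Mtf2 help bring it to its sites on chromatin. The mark keeps developmental genes silent, and Ezh2 is known as a gene that E2F factors turn on in dividing cells.

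Values are log2 on the scale of the robust multi-array average (RMA), so a difference of 1 is a doubling, and they compare tumours within a probe set and not one probe set with another. The kept arrays were 52 of array A, in 17 sublines, and 53 of array B, in 18 sublines. Subline 23 and tumour 3 of subline 25 were left out on array A, and tumour 3 of subline 11, tumour 2 of subline 23 and tumour 3 of subline 25 on array B. The median correlation of a left-out array with the others was 0.223 to 0.948 on array A and 0.858 to 0.919 on array B, against at least 0.97 and 0.968 among those kept. All 9 luminal epithelial markers were above the mean of 27 probe sets for absent spiked-in RNA (4.69 to 5.05 on the kept arrays A), with Krt8 at 11.6 to 12.94 and Epcam at 12.32 to 13.35. The tumours also held other tissue: Acta1 of skeletal muscle ranged between 6.25 and 13.8, and Adipoq of adipocytes between 5.34 and 11.4. In such bulk samples fewer cells of a type and less RNA per cell cannot be told apart.

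Suz12 was the member whose sublines stood furthest apart, and its probe sets did not move together in subline 18: one was higher there, 3 were lower and one was level with the other sublines. A further one, 1449661_at, was higher but dim. These values chose the gene, so they are given as a description with no test. Suz12 lies on mouse chromosome 11. Its promoter is shown with that of Ezh2, since both held a match to an E2F consensus word, which capitals mark. The sequences are RefSeq's, GRCm38.p6, with 250 bases before and 50 after the start of the gene, at chr11:79992856-79993155 on the plus strand for Suz12 and chr6:47594981-47595280 on the minus strand for Ezh2.
Suz12 promoter: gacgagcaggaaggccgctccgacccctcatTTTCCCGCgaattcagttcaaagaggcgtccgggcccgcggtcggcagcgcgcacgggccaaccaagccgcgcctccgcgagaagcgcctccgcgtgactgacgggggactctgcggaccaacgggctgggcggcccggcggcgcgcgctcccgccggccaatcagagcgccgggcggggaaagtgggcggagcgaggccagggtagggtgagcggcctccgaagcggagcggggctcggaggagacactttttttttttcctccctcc
Ezh2 promoter: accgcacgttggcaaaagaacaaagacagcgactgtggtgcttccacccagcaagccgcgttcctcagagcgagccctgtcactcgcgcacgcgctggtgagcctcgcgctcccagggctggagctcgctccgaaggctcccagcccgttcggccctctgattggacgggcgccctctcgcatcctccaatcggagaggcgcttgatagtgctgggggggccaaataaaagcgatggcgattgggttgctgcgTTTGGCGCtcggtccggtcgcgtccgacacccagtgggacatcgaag
The words searched on both strands were TTTCCCGC, TTTCGCGC, TTTGCCGC and TTTGGCGC, and 2.26% of 32851 promoters of this length held at least 1 of them. The Suz12 match, TTTCCCGC, began at position -219 from the start, and the Ezh2 match, TTTGGCGC, at position 4. No match to these words was found in the windows of the other 6 members. A pair of more common words was searched in the same way: CCAAT, held by 37.4% of all promoters, was found in 7 of the 8 members, all but Ezh1, and TTTGAA, held by 17.9%, in 3 (Suz12, Eed and Mtf2). The words were chosen after the values were seen, and a match describes the letters only.

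On Suz12 probe set 1420022_s_at the 3 tumours of subline 18 had log2 values of 7.02, 6.56 and 6.83, against a lowest of 5.29, a median of 5.58 and a highest of 5.92 in the 49 tumours of the other sublines. The groups did not overlap. Subline 18 was 1.24 ± 0.07 (SE) above the other sublines, a 2.36-fold difference. The other sublines lay close to background on this probe set, since the probe sets for absent RNA had means of 4.69 to 5.05. The fold is therefore read with caution. After subline 18 the order of the subline means closed up, with 5.70 in subline 20, 5.68 in subline 14 and 5.67 in subline 2 at the top of the others and 5.41 in subline 24 at the bottom. The SD between tumours of a subline was 0.12, so neighbours in that order did not differ beyond their spread. Probe set 1449661_at showed the same split, with 5.78, 5.32 and 5.63 in subline 18 against 4.15, 4.58 and 4.86 (lowest, median and highest) in the other sublines. Its mean of 4.60 lay under that of the probe sets for absent RNA, so no size is given for it.

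Lower values in subline 18 were read by 3 other Suz12 probe sets. On 1452364_at the tumours of subline 18 had 7.56, 7.39 and 7.73, against a lowest of 7.72, a median of 8.46 and a highest of 9.03 in the others, and only 1 of the 49 was at or below the highest of subline 18. That one was a tumour of subline 22. The difference was -0.91 ± 0.15 (SE), 1.88-fold lower in subline 18. On 1427253_s_at subline 18 had 8.27, 8.23 and 8.41 against 8.28, 9.15 and 9.82 (lowest, median and highest) in the others, a difference of -0.85 ± 0.14. On 1420021_s_at subline 18 had 8.97, 9.06 and 9.13 against 9.04, 9.54 and 10.25 in the others, a difference of -0.48 ± 0.14 with overlapping values. The last probe set, 1420020_at, had 7.78, 7.86 and 7.80 in subline 18 against 7.53, 7.78 and 8.15 in the others, and differed by 0.01 ± 0.07.

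Subline 22 had the next lowest mean on the 3 probe sets that were low in subline 18. Its tumours had 7.72, 7.99 and 7.98 on 1452364_at, a mean of 7.90, against the 8.34 of subline 11, which followed in the order. On 1427253_s_at they had 8.28, 8.76 and 8.69, a mean of 8.58 against 9.05 in subline 11. On 1420021_s_at they had 9.39, 9.25 and 9.04, a mean of 9.23 against 9.40 in subline 11. On 1420022_s_at, where subline 18 was high, subline 22 had 5.58, 5.58 and 5.40 and lay within the range of the others. At the top of the order on 1452364_at, sublines 28 (8.73), 21 (8.69) and 10 (8.67) were closer to each other than the SD of 0.25 between tumours of a subline.

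**Figure D1:**
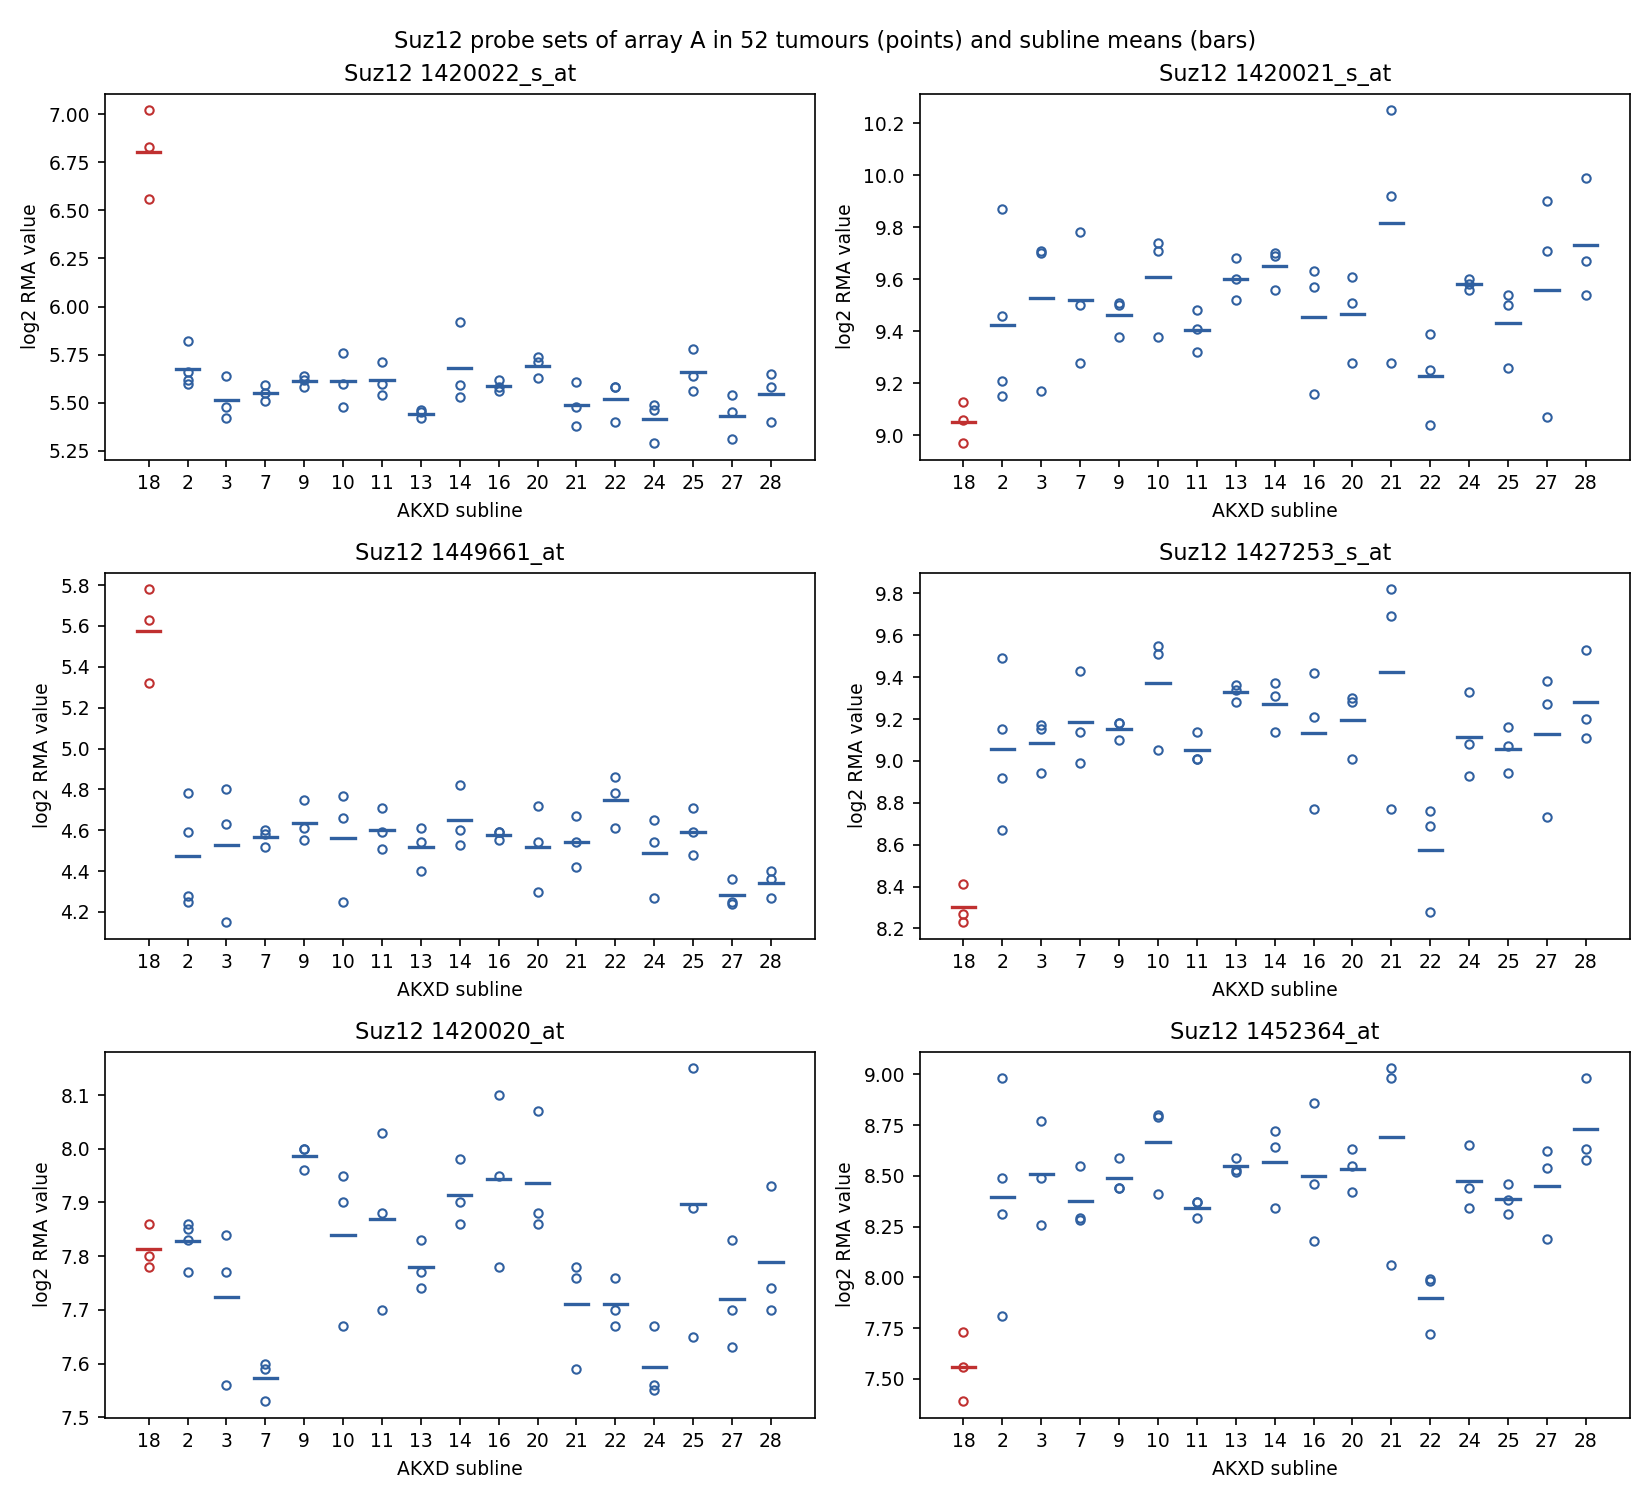
Log2 RMA values of the 6 Suz12 probe sets of array A (vertical axes, each with its own range) in 52 tumours, by AKXD subline, with subline 18 at the left in red. Points are tumours and bars are subline means; subline 18 sits above all other tumours on 1420022_s_at (6.56 to 7.02 against 5.29 to 5.92) and has the lowest means on 1452364_at (7.56) and 1427253_s_at (8.30).

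How far some of the Suz12 probe sets followed each other depended on subline 18, as a description over tumours that share arrays and normalization. Probe sets 1427253_s_at and 1452364_at had r = 0.96 over 52 tumours, 0.94 without subline 18 and 0.93 after subline means were removed. 1420021_s_at followed 1427253_s_at with r = 0.86, and 0.84 without subline 18, so these pairs hardly changed. The pair that was high in subline 18, 1420022_s_at and 1449661_at, had r = 0.84 over all tumours and 0.37 over the 49 without subline 18. Between 1420022_s_at and 1452364_at r was -0.55, and 0.01 without subline 18. Between 1420020_at and 1420022_s_at it was 0.19, and 0.48 without subline 18. Over the 49 tumours without subline 18, 1420022_s_at had r between -0.04 and 0.04 with the 3 probe sets that were low there.

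The arrays left out touch these values. In subline 23, 1420022_s_at read 6.66, 6.03 and 8.67 and in tumour 3 of subline 25 it read 7.00, levels that overlapped those of subline 18 on arrays that stood apart. With all 56 arrays A the difference of subline 18 was 1.13 on 1420022_s_at, -0.85 on 1452364_at and -0.75 on 1427253_s_at. Leaving out replicate 1, 2 or 3 gave 1.14 to 1.36, -0.97 to -0.81 and -0.89 to -0.79 on the same probe sets. Which part of the Suz12 transcript each probe set reads was not analysed here.

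No gene next to Suz12 on chromosome 11 was called in subline 18. Of the 10 RefSeq genes on either side, 18 of 20 had probe sets, 46 over both arrays, and the differences of subline 18 from the other sublines ran between -0.27 and 0.26. By limma, 0 of the 46 passed an adjusted p of 0.05 in subline 18 (the smallest was 0.966) and 1 had an unadjusted p under that value, against 0.0221% of all array A probe sets called higher and 0.0265% called lower in subline 18, and 0.00444% and 0.00% on array B. That one was Utp6 1424500_at (difference -0.22 ± 0.10), whose product takes part in making ribosomes. On the other flank Crlf3 had -0.10 ± 0.08 on 1460338_a_at and 0.20 ± 0.10 on 1438235_at.

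For the other members of the complex, no call was made in subline 18. Of their 17 array A probe sets 0 passed the threshold there by limma, and 1 had an unadjusted p under 0.05; of the 5 of array B, 0 and 0 did (adjusted p 0.966 to 1). Few probe sets of any kind were called in subline 18, as given above, and 3.83% of all on array A and 5.08% on array B had an unadjusted p under 0.05, so these counts do not set the members apart from the rest. Ezh2, the main methyltransferase of dividing cells, had 8.89, 8.87 and 8.83 in subline 18 against 8.44, 8.99 and 9.46 (lowest, median and highest) in the others, a difference of -0.15 ± 0.13. Eed 1448653_at, the subunit that reads the mark, had 9.28, 9.33 and 9.31 against 8.86, 9.26 and 9.65, a difference of 0.05 ± 0.10. The largest difference among the 17 was that of Rbbp4 1454791_a_at, with 9.80, 9.89 and 9.96 in subline 18 against 9.61, 10.17 and 10.66 in the others (-0.28 ± 0.10, adjusted p = 0.999). For Jarid2 the differences were 0.06 to 0.16 with SE of 0.15 to 0.17, and for the 4 Mtf2 probe sets of array A between -0.05 and 0.02. The SE of these differences was 0.06 to 0.20, which limits what 3 tumours can show.

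Across all sublines, 4 of the 23 member probe sets on array A passed limma's moderated F test for any difference among sublines, against 1.74% of all probe sets of the array. All 4 belong to Suz12, which was chosen from that contrast, and nothing is read from their count. Of the 17 probe sets of the other members 0 passed, and 4 had an unadjusted p under 0.05, against 3431 of 22626 (15.2%) over all probe sets. The lowest adjusted p was 0.0889, for Rbbp4 1454791_a_at, whose tumours had 9.65, 10.07, 9.85 and 9.86 in subline 2, the lowest, and 10.61, 10.58 and 10.24 in subline 13, the highest. On array B 0 of 5 passed, against 0.671% of all probe sets, and 1 had an unadjusted p under 0.05, as did 2477 of 22511 over all. The subline means of the other members on array A spanned a median of 0.39 from lowest to highest, close to the 0.33 over all probe sets, where the 6 Suz12 probe sets spanned a median of 1.15. Ezh2 spanned 0.39, between 9.18 in subline 10 and 8.80 in subline 2, and Eed 1448653_at spanned 0.16. The second methyltransferase, Ezh1, spanned 0.37 on 1418290_a_at and 0.25 on 1449023_a_at. Jarid2 spanned 0.55 to 0.67, with its low in subline 14 on all 3 probe sets (8.52 on 1422697_s_at against 9.19 in subline 16), and its adjusted p in subline 14 was 0.482 or more. Mtf2 1449115_at also spanned 0.67.

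Mtf2 was called in single sublines. Each subline was set against the mean of the others, and 0.459% of all such comparisons on array A were called. Of the 289 comparisons of the members other than Suz12, 4 were called by limma, all of Mtf2. An unadjusted p under 0.05 was reached in 24 of the 289, against 7.56% of all comparisons, so that count does not set the members apart. Subline 21 was higher on 1418514_at, with 8.19, 8.21 and 8.45 against 7.57, 8.00 and 8.28 (lowest, median and highest) in the others, where 3 of 49 tumours reached its lowest value (difference 0.30 ± 0.08, limma adjusted p = 0.0342). It was also higher on 1449115_at, with 7.56, 7.78 and 7.67 against 6.65, 7.38 and 7.63 (0.34 ± 0.10, adjusted p = 0.0465). Subline 22 was lower on the same probe sets. It had 6.98, 7.03 and 6.99 on 1449115_at against 6.65, 7.39 and 7.78 in the others (-0.38 ± 0.10, limma adjusted p = 0.0233). On 1418514_at it had 7.86, 7.58 and 7.75 against 7.57, 8.02 and 8.45 (-0.28 ± 0.08, limma adjusted p = 0.0499). In subline 21, 2.41% of all array A probe sets were called higher and 0.990% lower, and in subline 22, 2.56% were called lower and 0.959% higher. On array B 0 of 90 comparisons of a member probe set with a single subline were called by limma, and 9 had an unadjusted p under 0.05, against 0.276% of all comparisons called and 6.64% with an unadjusted p under 0.05.

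The remaining pair of Mtf2 probe sets on array A was not called in either subline. In subline 21, 1418515_at differed by 0.22 ± 0.08 and 1418516_at by 0.20 ± 0.08, and in subline 22 by -0.02 ± 0.08 and -0.00 ± 0.08. All 4 calls were lost with all arrays kept, with the composition scores as covariates and without replicate 1, 2 or 3. Both calls in subline 21 were also lost with array weights, that of 1449115_at in subline 21 with the replicate block, and that of 1418514_at in subline 22 with quantile normalization. Calls over all 22626 probe sets of array A changed too. In subline 21 they were 36 with all arrays, 643 with the covariates and 4 with array weights, against 769 in the main fit. Without a replicate number they were 118 to 1118 there. In subline 22 they were 3 with all arrays, 512 with the covariates and 101 to 567 without a replicate number, against 796. The Mtf2 differences kept their direction in these fits. In subline 21 they were 0.33 on 1418514_at and 0.34 on 1449115_at with all arrays, 0.22 on both with the covariates, and 0.25 to 0.36 and 0.29 to 0.38 without a replicate number. In subline 22 they were -0.26 and -0.37 with all arrays, -0.22 and -0.29 with the covariates, and -0.35 to -0.24 and -0.38 to -0.37 without a replicate number. Tissue content moved with these sublines: the skeletal muscle score, an average of 10 genes after each is centred on its own mean, was -2.63 to -0.71 in subline 21 and 0.14 to 2.71 in subline 22, against -2.78 to 2.71 over all tumours. The adipocyte score, over 10 genes, was -0.76 to -0.57 in subline 21 and 0.03 to 1.33 in subline 22. The luminal score, over 9 genes, reached -1.02 in tumour 1 of subline 21, the lowest of all. The part of muscle and fat content in the Mtf2 result was not tested beyond the fit with covariates. The luminal score was not a covariate in that fit, so the part of luminal content was not tested.

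**Figure D2:**
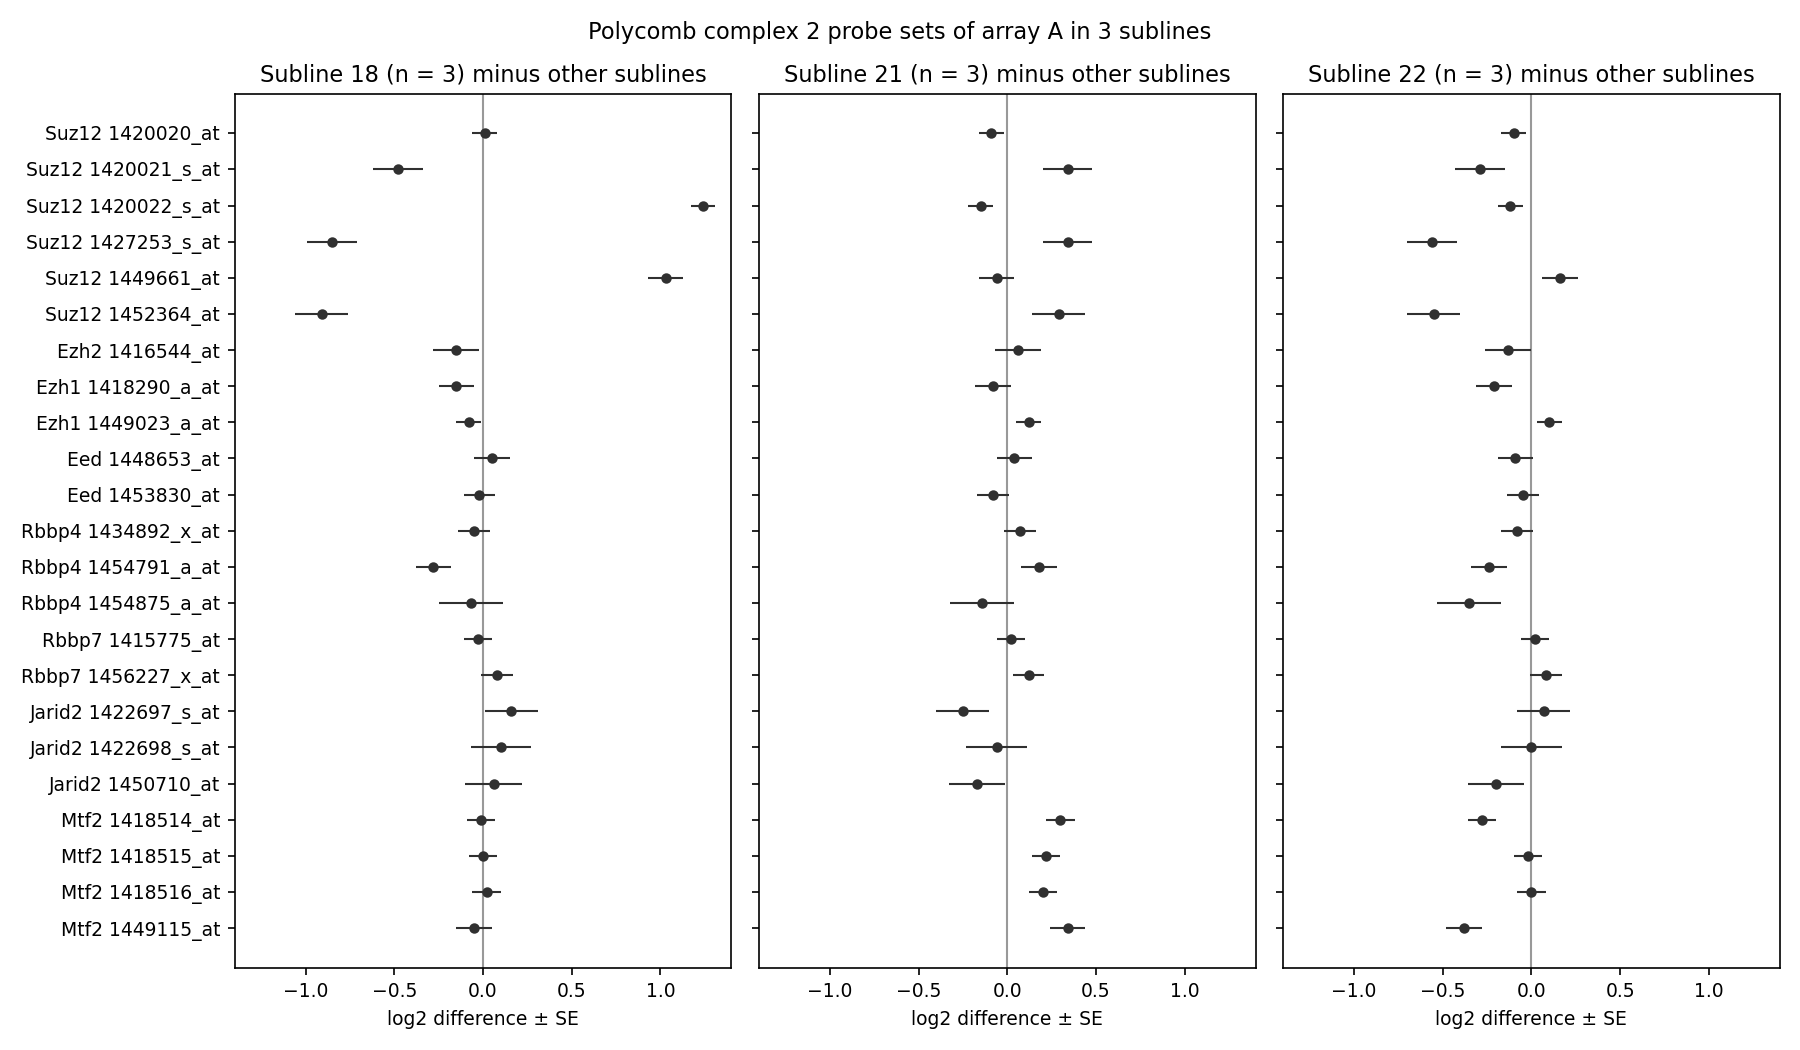
Log2 difference of sublines 18, 21 and 22 (3 tumours each) from the mean of the other sublines for the 23 member probe sets of array A, with the SE as bars. The Suz12 probe sets spread between -0.91 and 1.24 in subline 18, where the other members lie between -0.28 and 0.16, and Mtf2 1449115_at lies at 0.34 in subline 21 and -0.38 in subline 22.

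Within sublines, at least 1 probe set of each member but Ezh1 rose with the expression of cell cycle genes. The cell cycle score averages 24 cell cycle genes, none of them a member, after each gene's own mean is subtracted from its log2 values, and it ran from -0.57 to 0.48 over the 52 tumours. A slope gives the change in log2 value per unit of that score around the subline means, a measure that the choice of Suz12 did not use. By limma, 14 of the 23 member probe sets on array A rose with the score and 0 fell, against 11.5% of all probe sets that rose and 5.41% that fell. The median slope was 0.46, against -0.04 over all probe sets. Without Suz12 the count was 10 of 17.

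The 3 Suz12 probe sets that were low in subline 18 all rose with the score. Probe set 1452364_at, which ranged over 7.39, 8.45 and 9.03 (lowest, median and highest), rose with a slope of 1.12 ± 0.15 (SE, limma adjusted p = 6.7e-07). 1427253_s_at rose with 0.97 ± 0.17 (limma adjusted p = 6.83e-05) and 1420021_s_at with 0.85 ± 0.17 (limma adjusted p = 0.000632). For 1420022_s_at, which was high there, the slope was 0.09 ± 0.11 (limma adjusted p = 0.589), and for 1420020_at it was -0.04 ± 0.11. The dim 1449661_at, also high in subline 18, is among the 14 that passed, but no size is given for it and its direction turned with all arrays kept. Without it 13 of 22 passed. The differences between these slopes were not tested. The cell cycle score of subline 18 itself was -0.17 to 0.14, in the middle of the others. That of subline 22, the next lowest on these 3 probe sets, was -0.28 to -0.11, with 37 of the 49 other tumours above it and 3 below. Its part in the Suz12 values of subline 22 was not tested.

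In the catalytic core, Ezh2 had a lowest value of 8.44, a median of 8.99 and a highest of 9.46, and rose with a slope of 0.77 ± 0.16 (limma adjusted p = 0.00059). Ezh1 did not pass the threshold, at 0.23 ± 0.15 and -0.07 ± 0.11 on array A; the difference between the Ezh2 and Ezh1 slopes was not tested. Eed 1448653_at rose with 0.60 ± 0.14 (limma adjusted p = 0.00172), while Eed 1453830_at, close to background at a mean of 5.26, had -0.02 ± 0.14. Among the 4 tumours of subline 2 the score was -0.37, 0.29, -0.26 and -0.05 in tumours 1 to 4. Ezh2 there had 8.44, 9.22, 8.71 and 8.82, and Suz12 1452364_at had 7.81, 8.98, 8.49 and 8.31. The tumour with the lowest score was lowest on both there, and the one with the highest score was highest on both. Single sublines often did not follow this order: the tumour with the highest score had the highest Ezh2 value in 9 of 17 sublines, and the one with the lowest score had the lowest in 7 of 17. In subline 28 the tumour with the lowest score, 0.20, had the highest Ezh2 value, 9.14.

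Among the histone-binding and accessory members, Rbbp7, a subunit that also serves in deacetylase complexes, rose with 0.47 ± 0.10 on 1415775_at and 0.45 ± 0.13 on 1456227_x_at. Of the 3 Rbbp4 probe sets on array A, 1434892_x_at rose with 0.46 ± 0.11, and the others had 0.23 ± 0.16 and 0.38 ± 0.28. Jarid2 rose on 2 of 3 probe sets, with 0.61 ± 0.21 on 1422697_s_at and 0.72 ± 0.23 on 1450710_at, and had 0.57 ± 0.25 on 1422698_s_at. Mtf2 rose on 3 of 4, with slopes of 0.34 to 0.48, and had 0.27 ± 0.13 on 1418515_at. On array B 0 of 5 member probe sets passed by limma, and 0 had an unadjusted p under 0.05, against 1.03% of all probe sets that rose with the score and 0.0755% that fell.

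**Figure D3:**
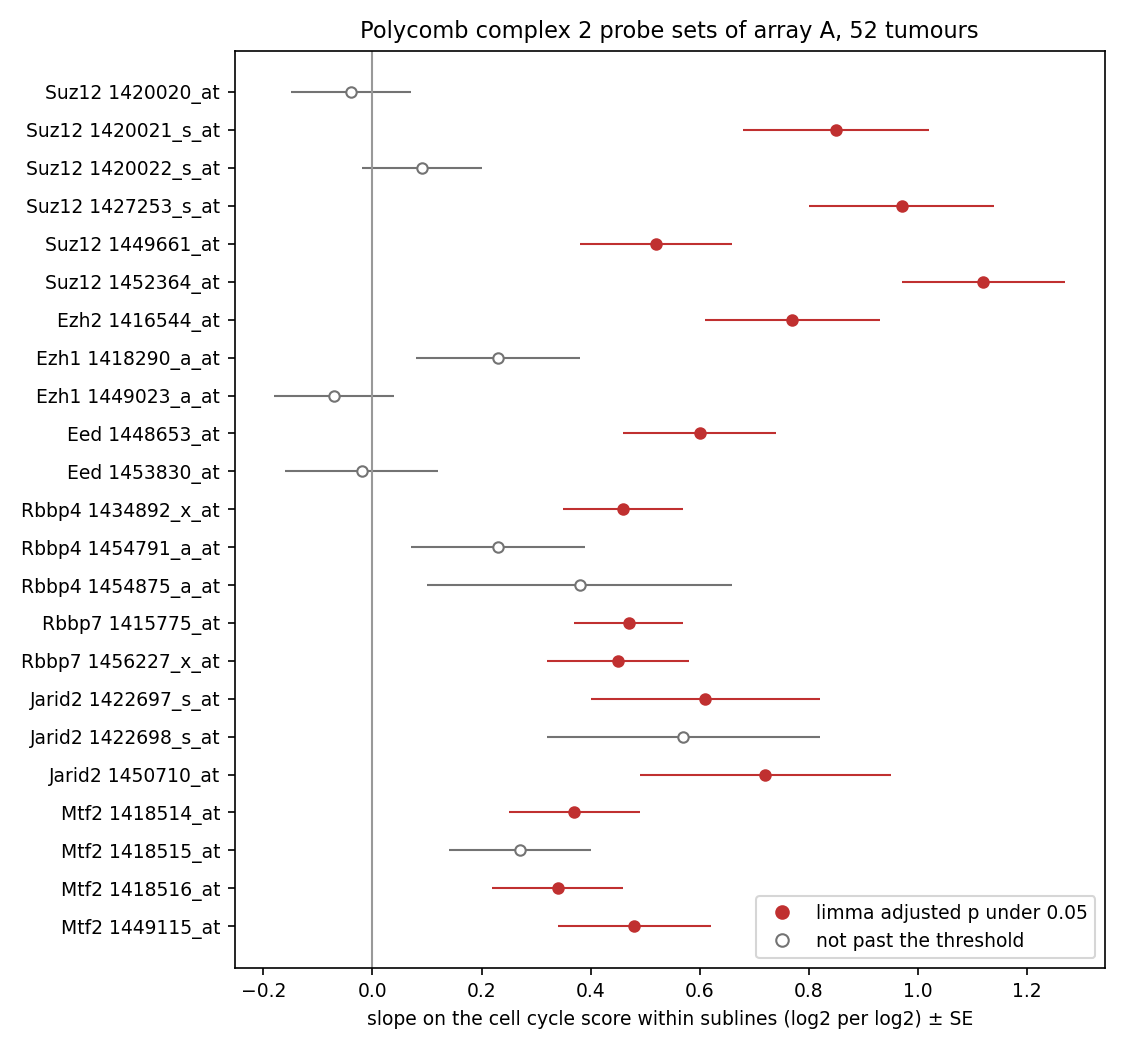
Slope of the log2 value on the cell cycle score within sublines (horizontal axis, log2 per log2, with its SE) for the 23 member probe sets of array A in 52 tumours. Red filled points passed a limma adjusted p of 0.05: 14 probe sets, led by Suz12 1452364_at at 1.12, while Suz12 1420022_s_at lies at 0.09 and the Ezh1 probe sets at 0.23 and -0.07.

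The score moved with tissue content. Within sublines it had r = -0.40 with the T cell score, -0.39 with that of macrophages, -0.38 with that of fibroblasts, -0.35 with that of endothelium and 0.32 with that of luminal epithelium, as a description over 52 tumours. With 6 composition scores added to the fit, 3 member probe sets rose with the cell cycle score, against 5.57% of all probe sets: Suz12 1452364_at (0.73), Ezh2 (0.62) and Rbbp7 1415775_at (0.43). The 6 were those of adipocytes, T cells, B and plasma cells, skeletal muscle, luminal epithelium and fibroblasts. Macrophage and endothelium scores were not in that fit. The count also rested on single tumours. It was 7 without tumour 2 of subline 2 and 9 without tumour 1 of subline 2, and 10 to 14 without each other tumour in turn. Calls over all 22626 probe sets, in either direction, also fell, to 2360 and 2959 without those 2 tumours, against 3833. The member count was 9, 1 and 6 without all tumours numbered 1, 2 and 3. There 12%, 2.17% and 4.86% of all probe sets were called in either direction, against 16.9%. Without those numbered 2 the share of all probe sets that rose was 2.00%. With all 56 arrays A 19 were called, but so were 15782 of 22626 probe sets of the array (69.8%), so nothing is read from that count. The slope was then 0.68 for Ezh2 and 0.74 for Suz12 1452364_at, but 1.61 for Rbbp7 1415775_at and -0.08 for Mtf2 1449115_at. Ezh2 and Suz12 1452364_at stayed called without each single tumour, with Ezh2 at 0.70 or more.

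**Figure D4:**
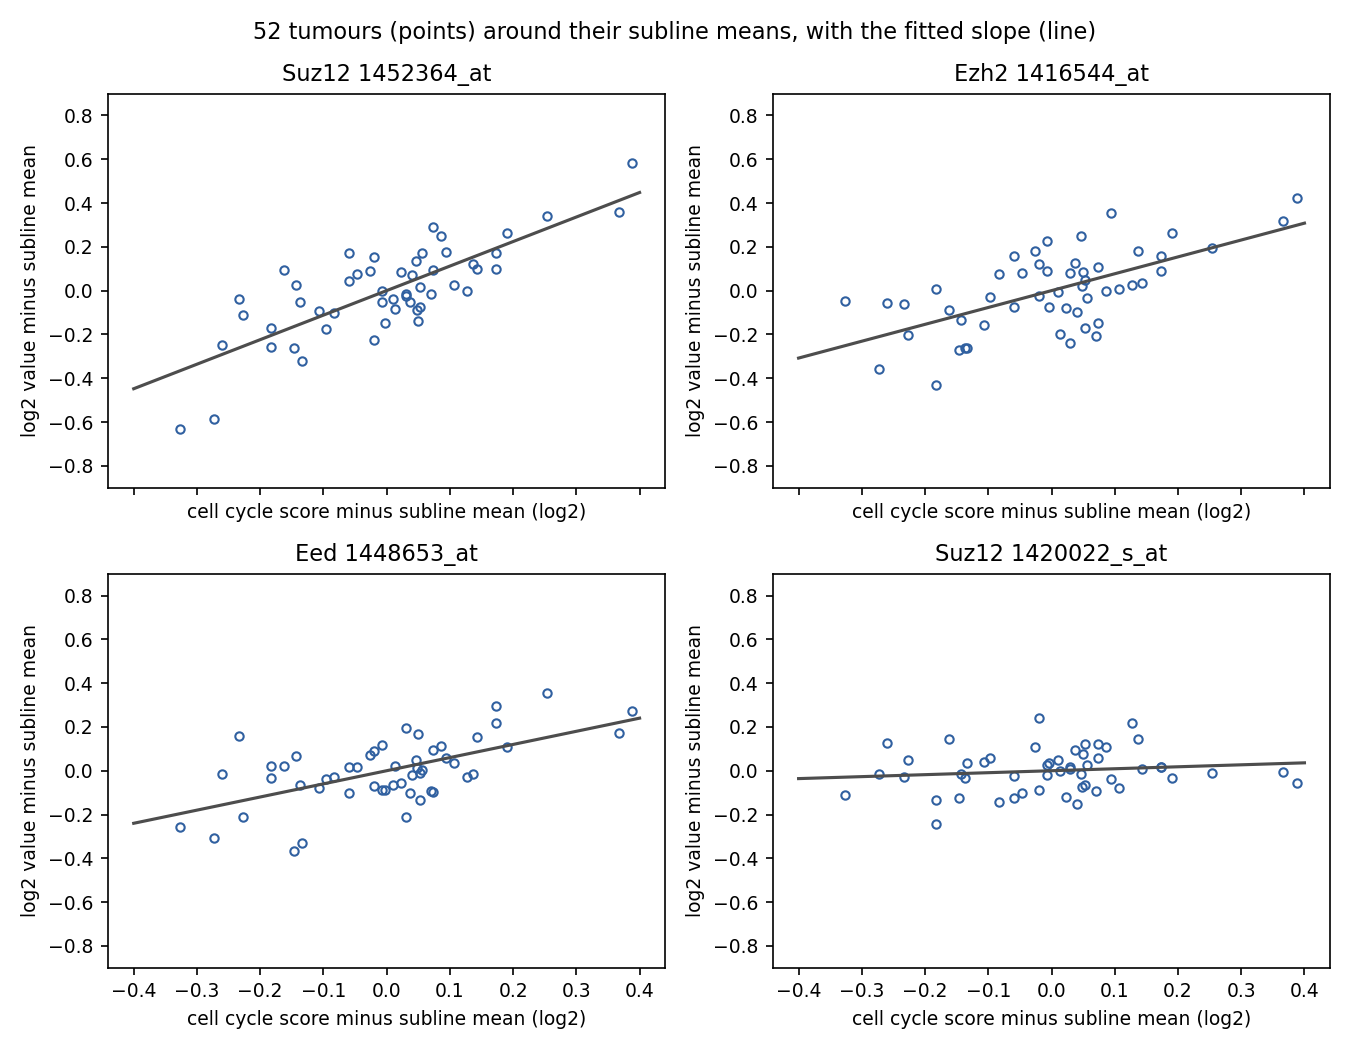
Log2 value minus the subline mean (vertical axes) against the cell cycle score minus the subline mean (horizontal axes) for 2 Suz12 probe sets, Ezh2 and Eed in 52 tumours (points), with the fitted slope as a line. The points climb for Suz12 1452364_at (slope 1.12), Ezh2 (0.77) and Eed 1448653_at (0.60) and run level for Suz12 1420022_s_at (0.09).

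Some members fell with fat content. On the adipocyte score within sublines, 5 of the 23 array A probe sets fell and 0 rose, against 4.68% and 6.26% of all probe sets: Ezh2 (-0.19 ± 0.05, limma adjusted p = 0.00688), Ezh1 1418290_a_at (-0.12 ± 0.04), Rbbp7 1456227_x_at (-0.12 ± 0.04), Mtf2 1418515_at (-0.11 ± 0.03) and Mtf2 1449115_at (-0.12 ± 0.04). On array B 1 of 5 fell, Rbbp4 1456260_at with -0.30 ± 0.08 (limma adjusted p = 0.0191), against 1.80% of all probe sets that fell and 2.17% that rose, and lost the call without replicate 1 or 3 and with all arrays. None of the 5 on array A was called without replicate 1, 2 or 3, or with all arrays kept. The share of all array A probe sets called in either direction also fell, from 10.9% to 1.22% to 4.53% without a replicate and 2.82% with all arrays.

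Genes that work with or against the complex were set beside Suz12 in subline 18. There 0 probe sets were called by limma in the lists of accessory subunits (8 on array A, 12 on array B), of Polycomb repressive complex 1 (28 and 17), of enzymes that remove the marks (6 and 13), of other complexes of Rbbp4 and Rbbp7 (27 and 11), of the opposing SWI/SNF remodellers (21 and 9) and of known Polycomb target genes (34 and 8). The counts with an unadjusted p under 0.05 were 1, 0, 1, 0, 0 and 0 on array A and 1, 1, 2, 0, 0 and 0 on array B, against 867 of 22626 and 1144 of 22511 over all probe sets, and the shares called in subline 18 over all probe sets are those given above. The median difference of subline 18 was -0.04 for the target genes on array A, against -0.02 over all probe sets. Among sublines, 1 of the 28 array A probe sets of complex 1 passed the F test and 0 in each other list named here, against 1.74% of all. On array B 1 of the 13 of mark-removing enzymes passed and 0 in the other lists, against 0.671%. The one of complex 1 was Ring1 1422647_at (limma adjusted p = 0.0335), whose product adds ubiquitin to histone H2A. Its mean was 7.96 in subline 28, the lowest, and 8.76 in subline 14, the highest. Of the target genes, the cell cycle inhibitor Cdkn1c had the smallest F test p (adjusted p = 0.0821), between 7.56 in subline 25 and 8.46 in subline 14.

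The same lists were read against the cell cycle score. On array A, 5 of 28 probe sets of complex 1 rose and 0 fell, 8 of 27 of the other Rbbp4 and Rbbp7 complexes rose and 1 fell, and 4 of 21 of SWI/SNF rose and 0 fell, beside the 11.5% and 5.41% over all probe sets. Of the 34 target gene probe sets 0 rose and 2 fell, with a median slope of -0.16 against -0.04 over all. Of the 6 probe sets of enzymes that remove the marks 1 rose and 0 fell. Of the 8 of accessory subunits 1 rose and 1 fell, with a median slope of -0.03, counts too small to set apart from those shares. The one that rose was Epop (0.74 ± 0.19, limma adjusted p = 0.00528). The one that fell was Phf1 (-0.53 ± 0.12, limma adjusted p = 0.00157), and both products bind the complex through Suz12.

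No probe set with another symbol followed 1420022_s_at closely. By absolute r over the 52 tumours of array A, the nearest were Cavin1 1421431_at (r = 0.52, and 0.58 over the 49 without subline 18), Asrgl1 1424396_a_at (-0.50 and -0.20), Adi1 1438758_at (-0.49 and -0.35) and Cyp39a1 1418780_at (-0.47 and -0.26). Vamp3 1437708_x_at had r = 0.45 and, without subline 18, -0.22. It had 9.65 to 10.07 in subline 18 against 8.83 to 9.80 in the others, a difference of 0.71 ± 0.11, while that of Adi1 was -0.80 ± 0.13. Likeness to a probe set that is high in subline 18 chose both, so these differences are given as a description with no test. On array B, over 51 tumours, the nearest was Prrc2c 1438663_at with r = 0.51.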

How the data were processed

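Per the submitters' processing notes, the authors made the values with RMA, and they deposited them as log2 values per probe set and tumour, with version, probe set definition and genome build not given in the sources used here. Values were used as deposited, each array type apart, without the 64 control probe sets of each, so that 22626 (array A) and 22511 (array B) entered the tests. GEO's platform annotation gave 1 symbol to 20380 and 14661 of them and several to 691 and 245, which were not used for members. No 2 arrays held identical values. Arrays give no read depth, and the number of tumours limits the precision.

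Subline means were fitted with limma 3.58.1 (lmFit and eBayes, R 4.3.3) over all probe sets, with 35 residual degrees of freedom on each array type. The tests were the F test among sublines, each subline minus the unweighted mean of the others, and slopes on gene list scores (the brightest array A probe set per gene) with subline means in the fit. Benjamini-Hochberg adjustment covered every probe set tested on an array type, and a call is an adjusted p under 0.05. The fits were tested on simulated data. Members and lists were chosen with earlier results of these data known. Named were all member probe sets, the genes next to Suz12 in the RefSeq table, the probe sets most like 1420022_s_at (the Suz12 probe set with the smallest F test p) and, from each pathway list, at most 4 genes by F test p; Epop and Phf1 were also the list members called on the slope. Replicate numbers did not pair tumours: after subline means were removed, the mean correlation was 0.00 for tumours with the same number and 0.00 for others. Alternatives were all arrays, a replicate block, quantile normalization, leaving out the dimmer 50% of probe sets, array weights, composition covariates, no subline means and leaving out each replicate number; composition covariates in the slope and each tumour left out were added after the data were seen.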

Additional observations from a re-analysis of the deposited data

Results flagged for a closer look

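Mtf2 1418514_at had a log2 value of 7.57 in tumour 1 of subline 2, away from the 7.98, 8.00 and 8.03 of the other 3 tumours of that subline. Its gap to the nearest of them, over the range of the 4, was above Dixon's critical value. The test was run on the same 4 tumours of subline 2 for each of the 28 member probe sets. Chance flags about 1 in 20 of such tests, and these 28 are not independent of each other.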

How the results depend on the processing

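The count of member probe sets called among sublines on array A was 4; it was 4 with the replicate block, 2 without the dimmer 50% of probe sets, 13 with array weights and 1 to 2 without a replicate number. Members other than Suz12 gave 0 of the 4, and 7 of the 13 with array weights. Suz12 was chosen from these contrasts, so nothing is read from how its calls held, here or in single sublines. Array weights called 9234 of 22626 probe sets (40.8%), against 393, leaving out a replicate number called 14 to 92, and all arrays called 889. The count of calls in single sublines was 10; it was 9 with the replicate block, 6 without the dimmer probe sets, 23 with array weights, 6 with composition covariates and 2 to 3 without a replicate number. Members other than Suz12 gave 4 of the 10, 3 with the replicate block, 2 without the dimmer probe sets and 8 with array weights. They gave 0 with composition covariates and 0 without a replicate number. In those fits 0.398% and 0.136% to 0.337% of all comparisons were called, against 0.459% in the main fit. Array weights kept 8 of the 10 and called 15691 of 384642 comparisons (4.08%), against 1764. With all arrays the count was 15 beside 15709 of 407268 comparisons (3.86%), and all 10 calls were lost, those of Suz12 and of Mtf2, with their directions kept. On array B 1 member of 5 was called among sublines with array weights, against 0, in a fit that called 4798 of 22511 probe sets (21.3%). The 14 cell cycle slopes of array A became 12 with the replicate block, 12 without the dimmer probe sets, 3 with composition covariates and 1 to 9 without a replicate number. The shares of all probe sets called in those fits, in either direction, were 16.6%, 26.4%, 8.3% and 2.17% to 12%, against 16.9% in the main fit. The 5 adipocyte slopes became 6 with the replicate block, 0 with all arrays, 3 without the dimmer probe sets, 10 with no subline means and 0 to 0 without a replicate number. Over all probe sets, 10.9%, 2.82%, 13.8%, 16.7% and 1.22% to 4.53% were called in those fits, in either direction, against 10.9% in the main fit. On array B the 1 became 0 with all arrays and 0 to 1 without a replicate number. With all arrays 1.41% of all array B probe sets were called, against 3.97%. With all arrays, the cell cycle slope was -0.08 for Mtf2 1449115_at and -0.80 for Suz12 1449661_at, the reverse of the main direction. The fits without a replicate number hold fewer tumours and those without dim probe sets fewer probe sets; the cause of the other shifts was not tested. Signal limits Suz12 1449661_at and Mtf2 1459811_at, whose means lay under those of the probe sets for absent RNA.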
